A study of Mus musculus with 8 samples.

Results

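The genes of condensin and cohesin were examined in Foxp3+ regulatory T cells induced in culture (iTreg) and sorted by their surface Neuropilin-1 (Nrp-1). The set holds 10 genes of 23361 in the deposited table. They were taken by symbol: 6 subunits of condensin (Smc2, Smc4, Ncapd2, Ncapg, Ncaph and Ncapg2) and 4 subunits of cohesin (Smc1a, Smc3, Rad21 and Stag2). All 10 were found and all passed the filter on low values. Wild-type naive splenic CD4+ T cells from B6 Foxp3-RFP mice of 7 to 8 weeks, in which red fluorescence reports Foxp3, were cultured with anti-CD3/CD28 beads (1 bead per 5 cells), IL-2 at 50 U/ml and TGF-β at 2 ng/ml. Live CD4+ Foxp3-RFP+ cells were then sorted into a subset with Nrp-1 on the surface (Nrp-1+) and one without (Nrp-1-), and each subset has 4 libraries labelled as biological replicates. The labels give 3 days of culture in one field and day 5 in another, and the study's methods give a different unit for IL-2. Nothing in the labels says whether the replicates came from separate animals or cultures, so p-values measure the spread between these libraries.

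Condensin and cohesin are ring-shaped complexes built on a pair of SMC (structural maintenance of chromosomes) ATPases closed by a kleisin subunit. Condensin folds chromatids into compact mitotic chromosomes. Condensin I and condensin II share Smc2 and Smc4 and differ in their other subunits. Cohesin holds sister chromatids together from S phase to anaphase, and throughout the cell cycle it also forms chromatin loops, so it is needed in cells that do not divide as well. T cells divide rapidly after stimulation through their receptor.

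Of the 6 condensin genes, 5 rose in Nrp-1+ cells, by 82.1% to 106% of the mean FPKM in Nrp-1- cells, and Smc4 did not pass the test. Of the 4 cohesin genes, Smc1a, Rad21 and Smc3 rose by 21.1% to 36.0%, and Stag2 did not pass. No member fell, though Smc4 was called lower when libraries were corrected for GC content and length. A larger share of dividing cells and more RNA per cell cannot be told apart in bulk libraries. FPKM are fragment counts scaled to transcript length and library size. A gene was said to rise or fall where its adjusted p (limma with log2(FPKM + 1) values, Benjamini-Hochberg) was under 0.05 among the 10467 genes that averaged 1 FPKM or more. By that test 20.9% of all tested genes were higher and 20.0% lower in Nrp-1+ cells (40.9% in either direction). With the correction for GC content and length these shares were 17.6% and 26.4%. Thus a call as such was common in these data. The sizes differ more: 1.75% of the tested genes were called higher with a log2 difference of at least 0.8, a size chosen after the values were seen, and the 5 condensin genes were among them. Ncapg was just above it, and at 0.79 with the correction.

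**Figure D1:**
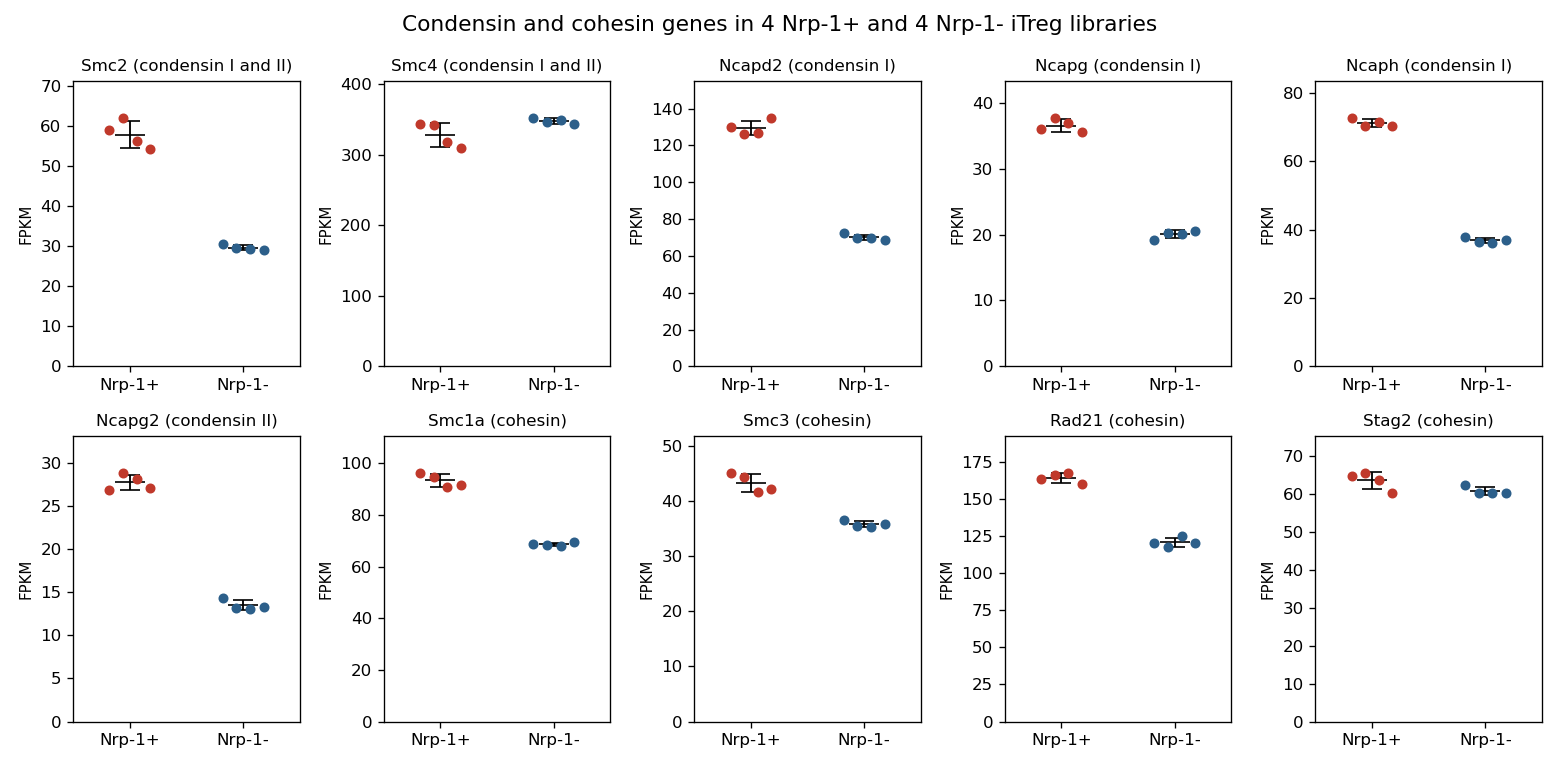
FPKM (vertical axes, each from 0) of the 10 genes in the 4 Nrp-1+ and 4 Nrp-1- libraries, with points for libraries and black bars for the mean and SD. The points of the groups lie apart in 8 panels, widest apart in the condensin genes other than Smc4, and overlap for Smc4 and Stag2.

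The sequence before the start site is shown as a description, and its part in the differences between the subsets was not tested. A cell cycle homology region (CHR, searched as TTTGAA on both strands) is an element known from promoters of genes used in G2 and mitosis. The RefSeq promoter table (GRCm38.p6) held windows of 7 members, Smc2, Ncapd2, Ncapg, Ncaph, Ncapg2, Smc1a and Smc3. Smc4, Rad21 and Stag2 had no entry, so the members that did not pass the test have no window to compare. Each window ends at 1 start site chosen in that table, and a gene can have other starts further upstream. In the 250 bases before that start, a CHR was found in 4 of the 5 condensin windows and in neither cohesin window. The windows of Ncapg, Ncapd2, Ncapg2 and Smc1a also hold exons annotated in GENCODE M21 (2, 3, 5 and 2 of them), so they are not purely upstream sequence. Of 32851 mouse windows of that length, 16.0% held it. A match is a run of letters and not a tested site. The 4 matches are given with 12 flanking bases on each side, 5′ to 3′ on the strand of the gene, with the CHR in capitals.
Smc2 (chr4:52439064-52439093, plus strand): tcgctttccatgTTCAAAacggtatagtct
Ncapd2 (chr6:125191692-125191721, minus strand): cagccgttgaggTTTGAAcagggaattgcg
Ncapg (chr5:45669883-45669912, plus strand): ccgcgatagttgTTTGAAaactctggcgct
Ncapg2 (chr12:116405406-116405435, plus strand): tacgcgggtgtgTTTGAAtctggtccgagc

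In Smc2 the element lay on the opposite strand, 145 to 140 bases before the start used in the table. In Ncapd2 it lay 123 to 118 bases, in Ncapg 30 to 25 bases and in Ncapg2 18 to 13 bases before that start. Against the outermost start of each gene, 1 of the 4 matches (Smc2) lay upstream by RefSeq, and 3 (Smc2, Ncapd2 and Ncapg) by GENCODE M21. The match in Ncapg2 lay inside the gene by both and within its own annotated exons. Ncaph rose with the others although its window held no such letters. A CCAAT box (CCAAT on either strand), found in 33.8% of all windows, was present in Smc2, Ncapg, Smc1a and 3 times in Ncapd2. An E2F-type sequence (TTCCCGC or TTGGCGC on either strand), found in 5.62%, was present in Ncapd2 and Ncapg2. The complete windows follow for a condensin gene with a CHR, for a condensin gene that rose without one and for a cohesin gene, with the CHR again in capitals.
Smc2 (chr4:52438971-52439220, plus strand): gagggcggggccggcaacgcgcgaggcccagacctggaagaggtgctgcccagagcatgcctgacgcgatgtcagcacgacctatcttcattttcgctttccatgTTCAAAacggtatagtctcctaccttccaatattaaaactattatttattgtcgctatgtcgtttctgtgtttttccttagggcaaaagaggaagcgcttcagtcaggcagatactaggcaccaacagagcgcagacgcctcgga
Ncaph (chr2:127133955-127134204, minus strand): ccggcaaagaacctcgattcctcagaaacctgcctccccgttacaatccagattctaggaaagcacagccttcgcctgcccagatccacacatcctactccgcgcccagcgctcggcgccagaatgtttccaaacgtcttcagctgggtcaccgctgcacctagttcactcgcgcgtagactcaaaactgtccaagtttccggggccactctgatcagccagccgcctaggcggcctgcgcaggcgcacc
Smc3 (chr19:53600146-53600395, plus strand): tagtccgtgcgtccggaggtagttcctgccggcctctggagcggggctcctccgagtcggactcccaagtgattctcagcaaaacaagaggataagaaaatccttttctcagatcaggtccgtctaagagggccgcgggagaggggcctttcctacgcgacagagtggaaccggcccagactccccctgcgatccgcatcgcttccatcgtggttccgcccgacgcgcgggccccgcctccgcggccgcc

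The libraries were first compared as a whole. The Nrp1 transcript, whose protein defined the sort, averaged 21.5 ± 0.709 FPKM (SD, n = 4) in Nrp-1+ cells and 4.95 ± 0.262 FPKM in Nrp-1- cells. Read counts were not given, but the steps between low FPKM values placed the depth of the libraries between 0.810 and 1.24 of that of replicate 1 of Nrp-1+ cells, or about 15300000 to 23300000 fragments. At that depth the least covered value of a member, Ncapg2 in an Nrp-1- library, rested on about 937 fragments, a number that is approximate because the authors' transcript models may differ. Replicates varied by 2.19 times the variance of fragment sampling in Nrp-1+ cells and by 2.08 times in Nrp-1- cells. In every pair the multiple was at least 1.66. These multiples rest on the approximate depth, and at that depth no pair of libraries agreed within fragment sampling. Cd3e, Cd4, Foxp3, Il2ra and Ctla4 were at 107 FPKM or above in every library. In Nrp-1+ cells Il2ra was higher by 16.5% (adjusted p = 0.000108 by limma) and Foxp3 by 6.44% (adjusted p = 0.0245). Ctla4 was lower (-10.25%, adjusted p = 0.000938), and Cd3e and Cd4 did not pass the test. The 12 markers of CD8 T, B, myeloid, NK and red cells summed to 13.7 to 17.0 FPKM in Nrp-1+ cells and 12.3 to 14.5 FPKM in Nrp-1- cells, most of it Cd8b1 and Hba-a1, while Cd8a was at 0.111 FPKM or less and Ms4a1 was listed at 0 throughout. Hba-a1, a globin gene of red cells, was higher in Nrp-1+ cells (6.10 against 2.52 FPKM, adjusted p = 0.000510 by limma), and Cd8b1 was lower (7.86 against 10.0 FPKM, adjusted p = 0.0119), and their part in the results was not tested.

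By RefSeq (GRCm38.p6), Smc2 (chr4:52439221-52488365) and Smc4 (chr3:69004738-69034623) encode the ATPase pair that both condensins use. Smc2 was at 59.1, 62.1, 56.3 and 54.4 FPKM in replicates 1 to 4 of Nrp-1+ cells and at 30.7, 29.7, 29.2 and 29.1 FPKM in those of Nrp-1- cells. The lowest Nrp-1+ library was thus far above the highest Nrp-1- library. The log2 fold change was 0.94 (standard error 0.04, adjusted p = 9.81e-07 by limma), which placed Smc2 99th among the 10467 tested genes in order of log2 fold change.

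Smc4, the partner of Smc2, did not pass the test. Its 4 Nrp-1+ libraries held 343.3, 342.0, 318.3 and 309.1 FPKM, and its 4 Nrp-1- libraries held 351.8, 346.6, 348.9 and 342.8 FPKM. The groups overlapped by a narrow margin, since replicate 1 of Nrp-1+ cells was just above replicate 4 of Nrp-1- cells. The mean of Nrp-1+ cells differed from that of Nrp-1- cells by -5.56%, with a log2 fold change of -0.08 (95% interval -0.17 to 0.00072, adjusted p = 0.103 by limma), so a rise of the size seen in Smc2 lay outside the interval. When libraries were corrected for the GC content and length of transcripts, the difference was -0.13 and was called lower (adjusted p = 0.00539, and 0.0228 with the replicate number as a block), as were 26.4% of all tested genes. The same correction moved the median of all genes by -0.031 and Smc4 by -0.044.

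Smc4 was also the most abundant of the 10 genes per length in every library, and its ratio to Smc2 differed between the subsets. In single libraries the ratio of Smc4 to Smc2 FPKM was 5.81, 5.51, 5.66 and 5.68 in Nrp-1+ cells and 11.5, 11.7, 11.9 and 11.8 in Nrp-1- cells. These SMC proteins act as a pair, yet their transcripts were not listed at equal levels in either subset. The introns of Smc4 hold the microRNA genes Mir15b and Mir16-2, which share no exon with it in GENCODE M21. Mir16-2 was listed at 0 in all 8 libraries and Mir15b at 76.6 FPKM in replicate 1 of Nrp-1+ cells and at 0 in the other 7.

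Condensin I is completed by the kleisin Ncaph (chr2:127103809-127133954) and the HEAT-repeat subunits Ncapd2 (chr6:125168007-125192100) and Ncapg (chr5:45669891-45700547). Ncapd2 was at 129.9, 126.4, 126.9 and 134.9 FPKM in Nrp-1+ cells and at 72.2, 69.7, 69.9 and 68.8 FPKM in Nrp-1- cells. Ncaph was at 72.6, 70.2, 71.4 and 70.4 FPKM in Nrp-1+ cells and at 37.9, 36.5, 36.0 and 37.0 FPKM in Nrp-1- cells. Ncapg was at 36.0, 37.7, 37.0 and 35.5 FPKM in Nrp-1+ cells and at 19.3, 20.3, 20.2 and 20.6 FPKM in Nrp-1- cells.
In all 3 genes every Nrp-1+ library exceeded every Nrp-1- library, and the spread within a group was small, with coefficients of variation of 1.54% to 3.02%. The log2 fold changes were 0.88 for Ncapd2 (standard error 0.03, adjusted p = 2.33e-07 by limma), 0.93 for Ncaph (standard error 0.02, adjusted p = 1.63e-07) and 0.83 for Ncapg (standard error 0.03, adjusted p = 3.54e-07). The ratio of Ncapg to Ncaph was 0.496 to 0.537 in Nrp-1+ cells and 0.508 to 0.561 in Nrp-1- cells, and these ranges overlapped through replicate 1 of Nrp-1- cells alone. The other 3 Nrp-1- libraries were at 0.556 or above. Exons of Ncapd2 overlap the small RNA gene Scarna10, which was listed at 0, and exons of Ncapg overlap those of Lcorl on the opposite strand. Lcorl was listed at a mean of 3.07 FPKM, and whether the authors' counting used strand is not given in the sources used here.

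Condensin II was represented by Ncapg2 (chr12:116405351-116463532), its counterpart of Ncapg. Ncapg2 was at 26.8, 28.8, 28.1 and 27.0 FPKM in Nrp-1+ cells and at 14.3, 13.1, 13.1 and 13.3 FPKM in Nrp-1- cells, again without overlap. With 0.99 it had the highest log2 fold change of the 10 genes (standard error 0.04, adjusted p = 4.38e-07 by limma). The other subunits of condensin II, which were not in the set, rose by less. The kleisin Ncaph2 averaged 85.2 ± 1.21 FPKM (SD, n = 4) in Nrp-1+ cells and 60.6 ± 2.82 FPKM in Nrp-1- cells, a log2 fold change of 0.48 (95% interval 0.41 to 0.56). The HEAT-repeat subunit Ncapd3 was at 29.0 ± 0.385 FPKM against 19.0 ± 0.565 FPKM, a log2 fold change of 0.58 (95% interval 0.52 to 0.64). Neither interval reached that of Ncapg2, which ran from 0.91 to 1.07. The ratio of Ncapg2 to Ncaph2 was 0.313 to 0.334 in the Nrp-1+ libraries and 0.207 to 0.244 in the Nrp-1- libraries, with no overlap, so these partners did not differ by equal amounts.

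The cohesin ring is formed by Smc1a (chrX:152016428-152061973), Smc3 (chr19:53600396-53645831) and the kleisin Rad21 (chr15:51962604-51993538), which separase cuts at anaphase. Smc1a was at 96.2, 94.7, 91.0 and 91.6 FPKM in Nrp-1+ cells and at 69.0, 68.2, 68.1 and 69.4 FPKM in Nrp-1- cells. Smc3 was at 45.0, 44.3, 41.7 and 42.2 FPKM in Nrp-1+ cells and at 36.5, 35.4, 35.3 and 35.8 FPKM in Nrp-1- cells. Rad21 was at 163.7, 166.1, 167.6 and 160.2 FPKM in Nrp-1+ cells and at 120.3, 117.7, 125.3 and 120.2 FPKM in Nrp-1- cells.
All 3 rose without overlap, and by less than the 5 condensin genes that rose. The log2 fold change was 0.44 for Smc1a (standard error 0.02, adjusted p = 2.73e-06 by limma), 0.44 for Rad21 (standard error 0.03, adjusted p = 4.34e-06) and 0.27 for Smc3 (standard error 0.03, adjusted p = 0.000183). The intervals of these 3 genes ended at 0.49, 0.50 and 0.34, below the lowest interval of the 5 condensin genes that rose, that of Ncapg, which began at 0.77. Smc1a and Smc3, the ATPase pair of cohesin, did not move by the same amount, and their ratio was 2.14 to 2.18 in Nrp-1+ cells and 1.89 to 1.94 in Nrp-1- cells.

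Stag2 (chrX:42149297-42277186) encodes the peripheral HEAT-repeat subunit that most somatic cohesin carries, in alternation with Stag1. Stag2 was at 64.8, 65.5, 63.8 and 60.3 FPKM in Nrp-1+ cells and at 62.5, 60.4, 60.4 and 60.3 FPKM in Nrp-1- cells. The groups overlapped, because replicate 4 of Nrp-1+ cells was as low as the Nrp-1- libraries. The log2 fold change was 0.06 (95% interval -0.0059 to 0.13, adjusted p = 0.130 by limma), and without that replicate it was 0.09 and passed the test (adjusted p = 0.0195). Stag1 was at 22.9 ± 0.587 FPKM (SD, n = 4) against 19.8 ± 0.826 FPKM and rose by 15.7% (adjusted p = 0.00200). The ratio of Rad21 to Stag2 was 2.52 to 2.66 in Nrp-1+ cells and 1.92 to 2.07 in Nrp-1- cells, without overlap.

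**Figure D2:**
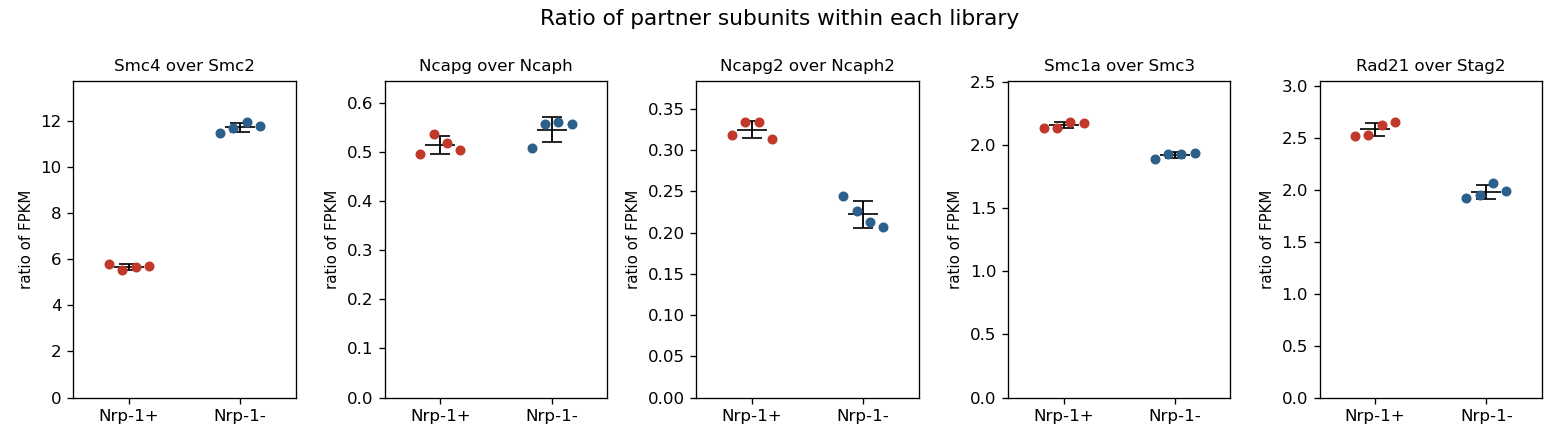
Ratio of the FPKM of 2 partner subunits (vertical axes, each from 0) in the 4 Nrp-1+ and 4 Nrp-1- libraries, with points for libraries and black bars for the mean and SD. The ratio of Smc4 to Smc2 is near 5.66 in Nrp-1+ and near 11.7 in Nrp-1- libraries, whereas that of Ncapg to Ncaph overlaps between the groups.

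Set in order of log2 fold change, the 10 genes ran from Ncapg2 over Smc2, Ncaph, Ncapd2 and Ncapg to Rad21, Smc1a, Smc3, Stag2 and Smc4. Neighbours within the run from Ncapg2 to Ncapg had overlapping 95% intervals, as had Rad21 and Smc1a, and Stag2 and Smc4. The intervals of Ncapg and Rad21, of Smc1a and Smc3, and of Smc3 and Stag2 did not overlap. The median was 0.90 over the 6 condensin genes and 0.35 over the 4 cohesin genes, beside -0.02 over all tested genes. The groups did not overlap for 8 of the 10 genes, each of them higher in Nrp-1+ cells, where 20.2% of all tested genes were higher and 19.3% lower without overlap.

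**Figure D3:**
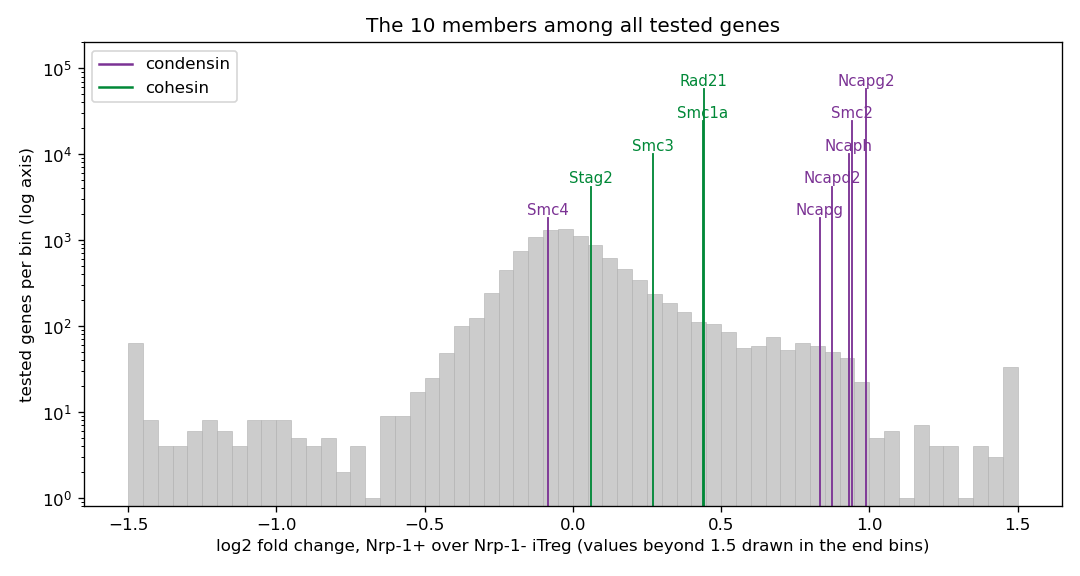
Number of tested genes (vertical log axis) by log2 fold change between Nrp-1+ and Nrp-1- cells (horizontal axis, bins of 0.05, values beyond 1.5 in the end bins), with lines for the condensin and cohesin genes. The lines of 5 condensin genes stand between 0.83 and 0.99, those of Smc1a and Rad21 at 0.44, and those of Smc4 and Stag2 near the median of all genes.

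The libraries of Nrp-1+ cells were less alike than those of Nrp-1- cells in several of these genes. Replicates 1 and 2 were above the group mean and replicates 3 and 4 below it in Smc2, Smc4, Smc1a and Smc3, by -6.16% to 7.11% in Smc2 and by -5.83% to 4.62% in Smc4. The same division was seen in 13.1% of all tested genes and in 9 of the 28 related genes tested, among them Smc5, Smc6, Nipbl, Sgol1 and Sgol2. It was also seen in Top2a and Mki67, though not in most of the other genes of the G2 and mitosis list described below. The coefficient of variation of Smc4 was 5.23% in Nrp-1+ cells and 1.08% in Nrp-1- cells, and that of Smc2 was 5.80% and 2.36%. In Ncapg, Ncaph, Ncapg2 and Rad21 it was instead higher in Nrp-1- cells, for Ncapg2 3.32% in Nrp-1+ and 4.32% in Nrp-1- cells.

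The genes that load, lock and open cohesin, and other chromosome-structure genes, were taken as a whole list of 32 genes, all found in the table. Of these, 28 passed the filter, 19 rose and 4 fell, with a median log2 fold change of 0.26. Over the alternatives 17 to 20 rose and 3 or 4 fell. Among all tested genes 20.9% were called higher and 20.0% lower, and the same shares stand beside the counts by role below. Stag3, Smc1b, Rad21l and Eid3, the first 3 of them known from meiosis, were under the filter at 0.804 FPKM or less in every library. The meiotic kleisin Rec8 was low but rose, from 1.11 ± 0.249 to 1.83 ± 0.150 FPKM (SD, n = 4, adjusted p = 0.00735 by limma, and 0.0636 with quantile normalization).

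**Figure D4:**
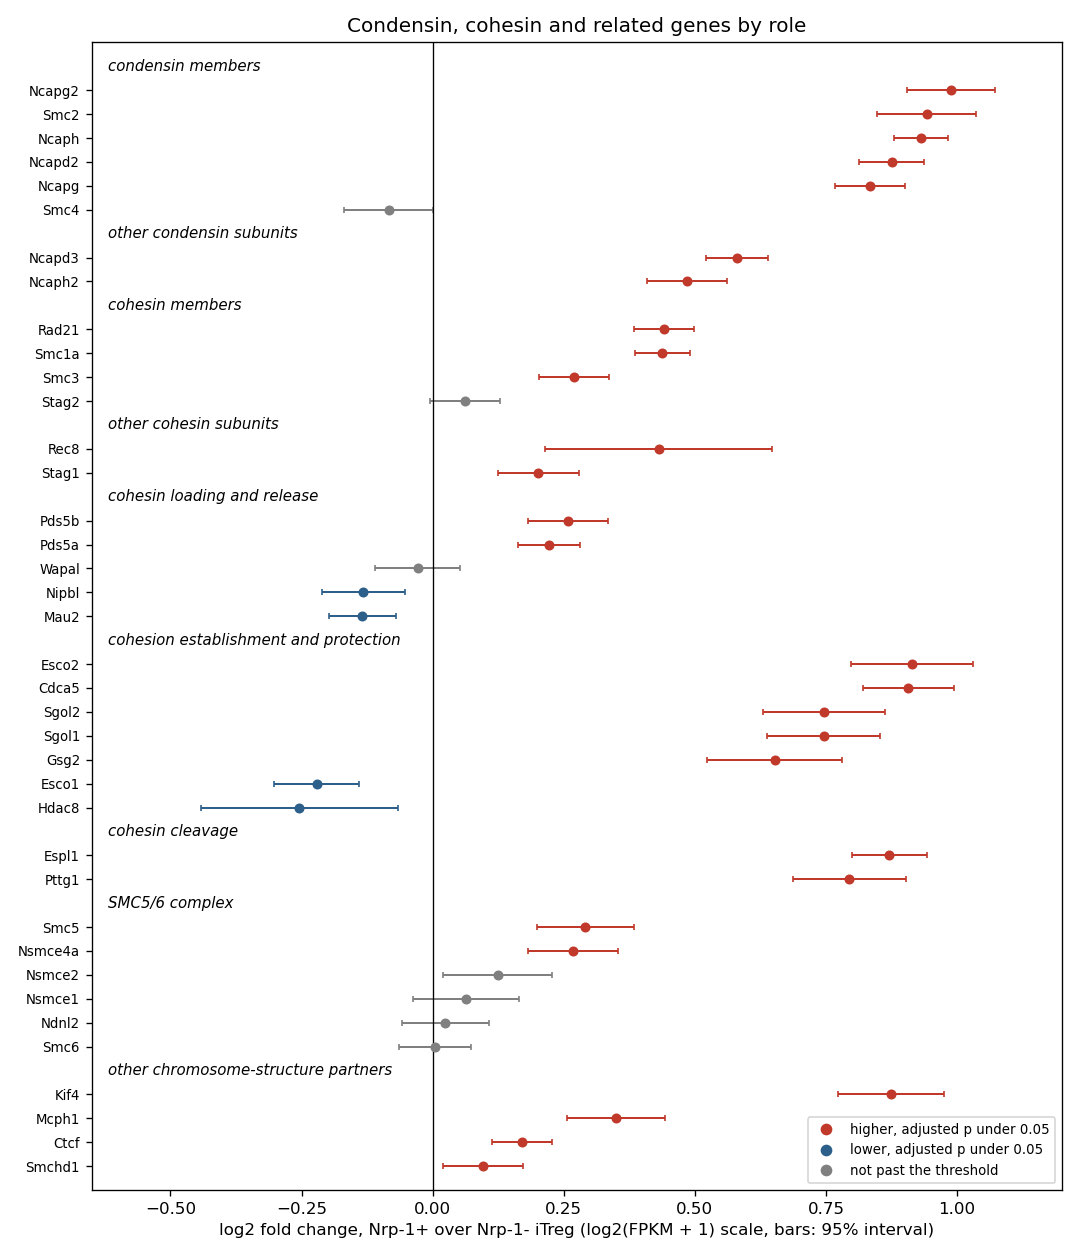
Log2 fold change of Nrp-1+ over Nrp-1- cells (horizontal axis, log2(FPKM + 1) scale, bars for the 95% interval) of the 10 members and 28 related genes, grouped by role and coloured by the limma call. Condensin genes other than Smc4 lie right of 0, as do 5 of the 7 genes that establish and protect cohesion. The other 2, Esco1 and Hdac8, lie left of 0, as do the loaders Nipbl and Mau2, and Smc4 and Wapal.

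Of the 7 genes that establish and protect cohesion 5 rose and 2 fell, and both genes of cohesin cleavage rose. Esco2, the acetyltransferase that locks cohesin on replicating DNA, was at 37.8 ± 2.52 FPKM (SD, n = 4) against 19.6 ± 0.787 FPKM (log2 fold change 0.91, adjusted p = 3.71e-06 by limma). Cdca5, or sororin, which protects the locked ring, was at 49.6 ± 2.01 FPKM against 26.0 ± 1.01 FPKM (0.91, adjusted p = 7.74e-07). Sgol1, a shugoshin that guards cohesin at centromeres, had a log2 fold change of 0.75, as did its relative Sgol2, and the kinase haspin (listed as Gsg2) one of 0.65. The protease separase, Espl1, which opens the ring, was at 21.0 ± 0.661 FPKM against 11.0 ± 0.322 FPKM (0.87, adjusted p = 4.14e-07), and its inhibitor securin, Pttg1, at 112.4 ± 5.42 FPKM against 64.4 ± 3.47 FPKM (0.79, adjusted p = 5.17e-06).

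The factors that load and release cohesin were split, with 2 of 5 higher and 2 lower, beside 20.9% and 20.0% of all tested genes. Nipbl and Mau2 form the loader of cohesin, and both were lower in Nrp-1+ cells. Falls of this size were common, since 21.8% and 21.4% of all tested genes ranked at or below Nipbl and Mau2 by log2 fold change. Nipbl fell by 9.03% (adjusted p = 0.0158 by limma) and Mau2 fell by 9.44% (adjusted p = 0.00579). Esco1, the paralogue of Esco2 that acts throughout the cell cycle, averaged 18.8 ± 0.930 FPKM (SD, n = 4) in Nrp-1+ cells and 22.1 ± 0.390 FPKM in Nrp-1- cells, a log2 fold change of -0.22 (adjusted p = 0.00153). The acetyltransferases Esco1 and Esco2 thus changed in opposite directions. Hdac8, the deacetylase that recycles Smc3, was called lower (log2 fold change -0.25, adjusted p = 0.0377), but its groups overlapped, and 8 of the 20 alternatives with an adjusted p did not keep the call (adjusted p up to 0.0989). The release factor Wapl, listed as Wapal, had a log2 fold change of -0.03 (adjusted p = 0.555), while its partners Pds5a and Pds5b rose by 16.9% (adjusted p = 0.000258) and 21.2% (adjusted p = 0.000494). Ctcf, which stops cohesin at loop anchors, rose by 12.7% (adjusted p = 0.000966).

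The SMC5/6 complex, another SMC ring that acts in DNA repair, had 7 listed genes. Of the 6 that passed the filter, Smc5 (log2 fold change 0.29, adjusted p = 0.000703 by limma) and Nsmce4a (0.27, adjusted p = 0.000774) rose. Smc6, the partner of Smc5, was at 52.6 ± 2.06 FPKM (SD, n = 4) against 52.4 ± 0.774 FPKM (log2 fold change 0.0049, 95% interval -0.06 to 0.07). As in condensin and cohesin, the transcripts of an SMC pair thus had unequal differences. Among the remaining partners, Kif4, a chromosome-bound kinesin that works with condensin I, was at 32.4 ± 1.24 FPKM against 17.2 ± 0.999 FPKM (log2 fold change 0.87, adjusted p = 2.24e-06). Mcph1, an inhibitor of condensin II, had a log2 fold change of 0.35 (adjusted p = 0.000280). The SMC-like Smchd1 rose by 7.07% (adjusted p = 0.0485), a call that 12 of the 20 alternatives with an adjusted p did not keep.

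The cell cycle lists, chosen with earlier results of these data known, were also higher in Nrp-1+ cells, as were the condensin genes other than Smc4. All 15 genes of a G2 and mitosis list were called higher in Nrp-1+ cells (median log2 fold change 0.90), and their summed level was 1346 to 1407 FPKM in Nrp-1+ and 721.5 to 731.6 FPKM in Nrp-1- libraries. All 15 genes of an S phase list were also called higher (median 0.82), beside 20.9% of all tested genes. Top2a, the topoisomerase that works beside condensin on mitotic chromosomes, was at 346.2 ± 9.71 FPKM (SD, n = 4) against 173.2 ± 3.08 FPKM, and the proliferation marker Mki67 at 82.3 ± 4.59 FPKM against 46.3 ± 1.40 FPKM. The part of cell cycle stage in the condensin and cohesin differences was not tested.

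The genes outside all these lists whose profile over the 8 libraries was nearest to the mean centred profile of the 6 condensin genes were Fam129b, Arhgap11a, Itgb1, Bora and Topbp1. The measure was the root-mean-square difference of log2(FPKM + 1), which was 0.020 for Fam129b and 0.030 for Topbp1. Because Smc4 belongs to the mean, that profile differed by 0.75 between the subsets, less than the other 5 condensin genes did. Arhgap11a was at 33.6 FPKM in Nrp-1+ cells and 19.4 FPKM in Nrp-1- cells, and Itgb1, an integrin chain, at 38.2 and 22.7 FPKM.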

How the data were processed

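RNA sequencing of 8 iTreg libraries was analysed, 4 from Nrp-1+ and 4 from Nrp-1- cells. The deposited table holds FPKM for each gene symbol in each library, which the authors obtained with the CLC Genomics Workbench and Cufflinks. The submitters' processing notes name GRCm38 (mm10), and aligner settings and annotation are not given in the sources used here. The study names a directional polyA kit and the labels another kit. Count models need read counts and were not run. Values were used as deposited and tested with limma 3.58.1 (lmFit, eBayes with an intensity trend, two-sided) in R 4.3.3, on log2(FPKM + 1), over genes averaging 1 FPKM or more. On this scale the differences of weakly expressed genes come out too small. Percent changes compare group mean FPKM. The exact two-sided Mann-Whitney test, which the study names, cannot go below p = 0.0286 with 4 against 4 libraries and served as an alternative read at its unadjusted p. As further alternatives, the pseudocount was set to 0.1 or 0.5, the filter was dropped or raised to 5, libraries were scaled by median-of-ratios size factors or by quantiles, and the remaining ones were the replicate block, no trend, array weights, no short RNA genes, correction for GC content and transcript length (a spline of 5 degrees of freedom on the longest transcript in GENCODE M21, which 99.4% of tested genes had), with the block and without it, and each library left out. The script was tested on simulated data. The named genes were all 10 members, the related genes, Nrp1, Mki67, Top2a and 5 genes of like profile. Mir15b, Mir16-2, Lcorl, Scarna10 and the windows to print were named after their values or matches were seen. The members and lists were chosen with earlier results of these data known, and no list was tested. Gene positions and promoter sequences come from RefSeq for GRCm38.p6, and exons from GENCODE M21. Trac was among the marker genes and had no row under that symbol. Python 3.11.15 with pandas 2.3.3, scipy 1.17.1, numpy 2.4.6 and matplotlib 3.10.9 was used for summaries and plots.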

Additional observations from a re-analysis of the deposited data

Results flagged for a closer look

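In 6 cases a library lay far from the other 3 of its group, with a gap to the nearest of them above Dixon's 95% critical value for 4 values. Over the 100 groups checked, chance gives about 5 such cases. Replicate 1 of Nrp-1- cells held 62.55 FPKM of Stag2, against 60.3 to 60.4 FPKM in the others. Replicate 3 of Nrp-1- cells held 7.36 FPKM of Sgol2, against 8.04 to 8.12 FPKM. Replicate 4 of Nrp-1+ cells held 32.5 FPKM of Nsmce2, against 36.4 to 36.9 FPKM.

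The other 3 cases were ratios, all in replicate 1. The ratio of Ncapg to Ncaph was 0.508 in Nrp-1- cells, against 0.556 to 0.561. The ratio of Ncapg to Ncapg2 was 1.34 in replicate 1 of both groups, against 1.31 in the other Nrp-1+ libraries and 1.54 to 1.55 in the other Nrp-1- libraries. In that Nrp-1- library the deviation from the group mean was 6.38% for Ncapg2 and -4.09% for Ncapg. The same library held the highest share of short RNA genes in its summed FPKM, 43.9%, and the part of this in the ratios was not tested.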

How the results depend on the processing

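Over the 20 alternatives with an adjusted p, 5 condensin genes and 3 or 4 cohesin genes were called higher, and of the 200 values of single members 197 kept their direction and their side of the threshold, with none reversed. The other 3 were Stag2 without replicate 4 of Nrp-1+ cells and Smc4 with the GC and length correction, without and with the block. With that correction 1 condensin gene (Smc4) was called lower in place of 0, in both forms, and the medians were 0.87 for condensin, 0.31 for cohesin and 0.23 for the 28 related genes, beside -0.05 for all genes. It called 1834 genes higher and 2748 lower (with the block 1588 and 2204). The cause of these moves was not tested. The exact Mann-Whitney test was read at its unadjusted p and so marks only groups that do not overlap, among them the same 8 members. After Benjamini-Hochberg adjustment its smallest p was 0.0723, so it called 0 genes of 10467, against 4139 at an unadjusted p under 0.05. Without a filter the median of the related genes was 0.22, because it added the 4 lowest genes. Among the related genes, Smc6 changed sign with quantile normalization (-0.0022), with the correction (-0.032 in both forms) and without replicate 2 of Nrp-1+ cells or replicate 1 or 4 of Nrp-1- cells (lowest -0.018, highest 0.026 over the 8 libraries left out in turn), and Nsmce3, listed as Ndnl2, with the correction (-0.0082 in both forms). Neither was called. Nsmce2 (adjusted p = 0.0584 by limma) passed the test with array weights (0.0292), without short RNA genes (0.0337) and without replicate 4 of Nrp-1+ cells (0.00555, log2 fold change 0.17). With the replicate number as a block, 1931 genes were called higher and 1675 lower, against 2189 and 2093 without it, and 5 condensin and 3 cohesin genes rose. Libraries of the same number did not deviate together (correlation of their deviations without short RNA genes -0.04 to -0.11), no library correlated best with its own number, and the labels tie the numbers to no animal or day.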
